A study of Mus musculus with 24 samples.

Results

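The maternal asthma effect in naïve pups was the difference between splenic dendritic cells (DCs) of 4 arrays from offspring of asthmatic mothers (asthma-at-risk, AF80 to AF83) and 3 arrays from offspring of control mothers (normal, AF76, AF77 and AF79). These 7 arrays, taken by their titles, were 7 of the 24 arrays of the series. All pups were BALB/c, were harvested on day 14 of life and had received no allergen. The mothers of asthma-at-risk pups had been given ovalbumin (OVA) with alum as young mice and OVA aerosols after weaning, and the fathers were normal. Control mothers were described as normal and, where the methods describe the testing of offspring, as PBS-challenged. Which of these gave the arrays is not stated. DCs were the CD11c+ cells kept by magnetic beads, and their RNA was hybridized to Affymetrix Mouse430A 2.0 arrays. To estimate the spread, the fit also used 8 arrays of pups injected once with OVA in alum, 4 from normal and 4 from asthma-at-risk pups. For these pups day 3, 5 µg of OVA and 1 mg of alum are recorded. The paper's methods put the injection of pups on day 4 after birth. These 15 arrays were taken as Set 1 of the study, from which the authors had dropped 1 outlying array. The labels do not name the sets, so membership was read from the array numbers in the titles and the group sizes in the methods. The methods call the arrays of a group biological replicates, and how many pups gave RNA to an array is not stated, so p-values measure the spread between arrays. The array numbers of each group ran in 1 block, so an order of processing and maternal status cannot be told apart.

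DCs take up antigen, present it on MHC class II molecules and set the kind of T cell response through costimulation and cytokines. In the spleen they lie next to T cells, B cell follicles with their follicular dendritic cells, and macrophages, and a CD11c selection can carry RNA of such neighbours. Chemokines, cytokines and immediate early genes are transcribed within a short time of a stimulus, and feedback inhibitors of MAP kinases and cytokine receptors limit that response. Steroid hormones, which can reach pups from the mother, act in immune cells through the glucocorticoid receptor, whose best known target gene is Fkbp5.

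Outside the IL-6 network of the study, naïve asthma-at-risk DCs had less RNA of Cxcl1, Cxcl10, Ifnb1, Ifna2, Lta, Il10 and Ctla4, of Clu, Mfge8 and Cr2, and of Spry2, Bhlhe40 and Nr4a2. They had more RNA of Fkbp5, Sult1a1 and the chaperone Hsph1. Differential expression (DE) was tested with limma. It was called where the p adjusted by Benjamini-Hochberg over all 22626 probe sets was at most 0.05 and the log2 fold change at least 0.32 in size. Of 22626 probe sets 77 were called, which is 0.34%, with 23 (0.102%) higher and 54 (0.239%) lower in asthma-at-risk DCs, and 3578 had an unadjusted p under 0.05. The 77 probe sets named 67 genes, 19 higher and 48 lower, and 3 of them carried no single gene symbol. The IL-6 network of 14 genes held 8 of the lower genes, which leaves 59 genes, 19 higher and 40 lower, for the description below. In each of the 77 called probe sets the 4 asthma-at-risk arrays lay apart from the 3 normal arrays, as they did in 5.69% (above) and 5.32% (below) of all probe sets. Changes were small, with 12 of the called probe sets at 2-fold or more and 29 below 1.5-fold. Of the genes that open this paragraph, only Fkbp5, Cxcl1, Ifnb1, Mfge8 and Bhlhe40 were also called when the naïve arrays were fitted alone. The calls of Lta, Il10, Clu, Nr4a2 and Hsph1 were lost when certain single arrays were left out. An exact permutation test of 4 arrays against 3 cannot go below a two-sided p of 0.0571, so single genes rest on the fit across all probe sets.

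**Figure D1:**
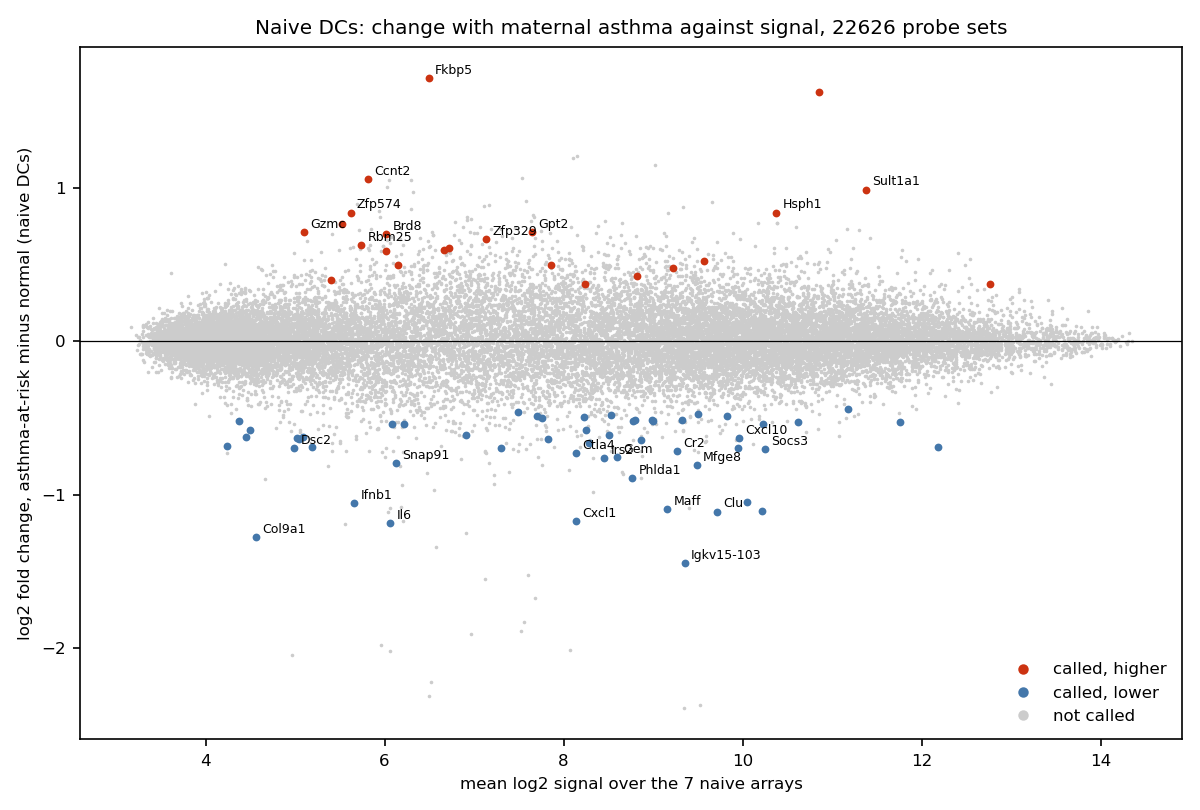
Log2 fold change between asthma-at-risk and normal naïve DCs (y axis) against the mean log2 signal over the 7 naïve arrays (x axis), with 1 point per probe set, called probe sets in colour and the genes with the largest changes named. Of the 77 called probe sets 54 lie below 0, and Fkbp5 is the highest.

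The 7 arrays had like distributions of signal, with medians from 272 to 279 on the linear scale. AF79 correlated with the other normal arrays at r = 0.990 across probe sets, while all other pairs within the naïve groups reached 0.996 or more, and the median SD over probe sets was 0.15 in the normal and 0.10 in the asthma-at-risk arrays. On AF81 the Y-linked transcript Eif2s3y had a log2 signal of 3.66, against 9.35 in AF80 and 10.24 to 11.04 in the other naïve arrays. Xist was at 11.88 to 12.29 in normal and at 12.35 to 12.66 in asthma-at-risk arrays, with no overlap (log2 fold change 0.46, adjusted p = 0.223). The Y-linked Kdm5d had -1.53 (adjusted p = 0.236) and Uty -1.19 (adjusted p = 0.304). The 4 sex-linked genes measured had a median of -1.36, and -0.59 without AF79 and AF81, with none called. The sex of the pups is not stated. AF81 had a high signal of Xist (12.66) and little of Eif2s3y. The other naïve arrays had high signals of both, so each of them held RNA of male and female pups. Whether the share of female pups differed between the naïve groups was not tested. Without AF79 and AF81 together 39 probe sets were called, 30 of them among the 77, and with the Eif2s3y signal as a covariate 30 were called, 28 of them among the 77. Both of these fits were added after the data were seen. Because Eif2s3y was at 3.66 in AF81 and at 9.35 or more in all other Set 1 arrays, the covariate mainly set AF81 apart. It cannot adjust for the mix of sexes in the other arrays. The labelled cell type was checked by its markers. Itgax, which encodes CD11c, ran from 12.70 to 13.10 in the naïve arrays, Flt3 from 11.54 to 11.81 and Cd74 from 14.26 to 14.31, and none of 16 conventional DC markers was called. Markers of other cells were present too, with Cd79a of B cells at 11.03 to 11.27, Cd3e of T cells at 9.66 to 10.17, Ngp of neutrophils at 12.75 to 12.95 in normal arrays and Alas2 of erythroid cells at 10.60 to 11.25. In such bulk samples fewer cells of a type and less RNA per cell cannot be told apart.

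Fkbp5, an immunophilin that binds the glucocorticoid receptor complex and is induced by it, rose more than any other gene called in naïve asthma-at-risk DCs. Log2 signals are given below in the order AF76, AF77 and AF79 for normal arrays and AF80, AF81, AF82 and AF83 for asthma-at-risk arrays. Fkbp5 had log2 signals of 10.09, 9.99 and 9.69 in normal arrays and of 11.56, 11.58, 11.59 and 11.46 in asthma-at-risk arrays, on the brighter of its probe sets. The asthma-at-risk arrays lay within a narrow band, more than 1 log2 unit above the highest normal array. This was a 3.08-fold rise (log2 fold change 1.62, SE 0.17, adjusted p = 0.000786), and the dimmer probe set gave 1.71 (SE 0.18, adjusted p = 0.000786). Both were called without each of the 15 arrays and when only the 7 naïve arrays were fitted. In stimulated DCs of Set 1 the same probe set averaged 9.73 in normal and 10.30 in asthma-at-risk pups, and that maternal difference of 0.57 was not called (adjusted p = 0.267). Fkbp5 was the only call on the glucocorticoid list, whose members lay on both sides of 0. Of its 20 measured genes 10 were negative and 10 positive, and their median was -0.03, against -0.01 over all genes. In 6 of the 20, Fkbp5 included, all asthma-at-risk arrays lay above all normal arrays and in 2 below, against 4.66% and 5.74% of all genes. Zbtb16, another gene induced by glucocorticoids, had 0.54 (adjusted p = 0.0867), the co-chaperone gene Fkbp4 had 0.41 (adjusted p = 0.162) and Mt1, a metallothionein, had -0.57 (adjusted p = 0.256).

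Cxcl1 and Cxcl10 fell among the chemokines, and Ifnb1 and Ifna2 among the interferons. Cxcl1, a chemokine for neutrophils, had log2 signals of 8.97, 8.70 and 8.77 in normal and of 7.54, 7.71, 7.85 and 7.45 in asthma-at-risk arrays. All asthma-at-risk arrays were well below the lowest normal array. It fell 2.25-fold (log2 fold change -1.17, SE 0.14, adjusted p = 0.0018). Cxcl10, an interferon-induced chemokine for activated T cells, had 10.15, 10.27 and 10.53 in normal and 9.77, 9.81, 9.53 and 9.64 in asthma-at-risk arrays. The 2 groups did not overlap, and it fell 1.55-fold (log2 fold change -0.63, SE 0.10, adjusted p = 0.0127). Of 27 chemokine ligands measured, Cxcl1 and Cxcl10 fell, none rose and 18 were negative, with a list median of -0.19. Over all 12393 genes, each by its probe set of highest mean, 0.347% were called, 0.29% as lower and 0.0565% as higher. Cxcl13, the B cell follicle chemokine, had -1.09 (adjusted p = 0.0629), Ccl2, the monocyte chemokine, -0.70 (adjusted p = 0.0787) and Xcl1, the ligand of cross-presenting DCs, -0.53 (adjusted p = 0.0814). None of 14 chemokine receptors was called, and their median was -0.06.

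Ifnb1 and Ifna2 encode type I interferons, the secreted proteins that trigger antiviral genes. Ifnb1 had log2 signals of 6.36, 6.23 and 6.20 in normal and of 5.08, 5.43, 5.36 and 4.98 in asthma-at-risk arrays. Ifna2 had 4.73, 4.84 and 4.87 in normal and 3.93, 4.38, 4.16 and 4.29 in asthma-at-risk arrays. Both were dim, at the 24.1 and 11.4 percentile of mean signal, and in both the groups did not overlap. Ifnb1 fell 2.08-fold (log2 fold change -1.05, SE 0.14, adjusted p = 0.00368) and Ifna2 fell 1.54-fold (-0.62, SE 0.10, adjusted p = 0.0127). All 4 of Cxcl1, Cxcl10, Ifnb1 and Ifna2 were called without each of the 15 arrays, and with only the naïve arrays Cxcl10 and Ifna2 were not called (adjusted p = 0.161 for each). Of 21 interferon response genes Cxcl10 alone was called, with 15 negative and a median of -0.10. Gbp3, a GTPase induced by interferons, had -0.25 (adjusted p = 0.155), Irf1, a transcription factor of that response, -0.18 (adjusted p = 0.181), and the RNA sensor Ifih1 -0.28 (adjusted p = 0.215).

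The promoters of these ligands and of Il6 are shown because 4 of these 5 genes carry the same letters of the NF-kB type. Promoter windows came from the RefSeq table of GRCm38.p6, from 250 bases before the start to 50 after it, for 27025 gene symbols, 34 of the lower and 14 of the higher called genes among them. Both strands were searched. The NF-kB letters, GGGA and TTCC with any 2 bases between them, stood in 1.63% of all genes, in 4 of the 34 lower genes (Cxcl1, Cxcl10, Ifnb1 and Il6) and in 0 of the 14 higher genes. The interferon-response letters, GAAA and GAAA with any 2 bases between them, stood in 3.99% of all genes, in 2 of the lower genes (Cxcl10 and Ifna2) and 1 of the higher genes (Ccnt2). The AP-1 letters TGANTCA stood in 8.97% of all genes in 4 of the lower genes (Cxcl10, Il6, Hilpda and Plaur) and in 2 of the higher genes (Rcan1 and Zfp329). The E-box letters CACGTG stood in 8.09% of all genes, in 3 of the lower genes (Farsb, Irs2 and Maff) and in 5 of the higher genes (Fkbp5, Hsph1, Cnot4, Lipt1 and Rcan1). A glucocorticoid-type run, GNACA and TGTNC with any 3 bases between them, stood in 0.537% of all genes and in 0 of the called genes with a window, Fkbp5 included. Sites outside these windows, as in introns or further from the start, were not searched, so a gene without a match may still have them. A match is a description of letters, and none of these sites was measured. Below are the 250 bases before the start, 5′ to 3′ on the gene's strand, with capitals for NF-kB, interferon-response and AP-1 letters. Cxcl1 lies on chr5:90890995-90891244 (plus strand) and its NF-kB letters match on both strands, from 71 to 61 bases before the start. Cxcl10 lies on chr5:92348890-92349139 (minus strand), with interferon-response letters from base 213, NF-kB letters from base 159 and AP-1 letters from base 74 before the start. Ifnb1 lies on chr4:88522795-88523044 (minus strand), with NF-kB letters from base 116. Ifna2 lies on chr4:88683780-88684029 (minus strand), with interferon-response letters from bases 239 and 164. Il6 lies on chr5:30012864-30013113 (plus strand), with AP-1 letters from base 249 and NF-kB letters from base 44. No capitals of different motifs overlap.
Cxcl1: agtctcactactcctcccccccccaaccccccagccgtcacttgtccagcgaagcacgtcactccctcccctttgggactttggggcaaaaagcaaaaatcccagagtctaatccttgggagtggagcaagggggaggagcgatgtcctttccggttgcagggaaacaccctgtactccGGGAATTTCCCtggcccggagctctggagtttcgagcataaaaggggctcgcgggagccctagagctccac
Cxcl10: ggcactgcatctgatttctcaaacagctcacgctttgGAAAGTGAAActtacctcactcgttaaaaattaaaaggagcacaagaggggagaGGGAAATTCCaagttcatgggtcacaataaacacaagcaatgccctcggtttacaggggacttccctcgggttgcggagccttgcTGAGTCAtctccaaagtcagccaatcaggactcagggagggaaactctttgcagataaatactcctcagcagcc
Ifnb1: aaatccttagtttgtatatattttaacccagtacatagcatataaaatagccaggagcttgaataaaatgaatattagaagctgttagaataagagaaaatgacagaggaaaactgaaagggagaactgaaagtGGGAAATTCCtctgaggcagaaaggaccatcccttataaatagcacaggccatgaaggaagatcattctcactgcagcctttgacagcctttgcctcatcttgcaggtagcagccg
Ifna2: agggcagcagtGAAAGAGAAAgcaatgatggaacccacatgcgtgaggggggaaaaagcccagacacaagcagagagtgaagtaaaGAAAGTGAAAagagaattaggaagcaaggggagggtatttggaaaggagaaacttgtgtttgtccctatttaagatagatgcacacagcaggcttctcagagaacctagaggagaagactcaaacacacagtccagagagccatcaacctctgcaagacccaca
Il6: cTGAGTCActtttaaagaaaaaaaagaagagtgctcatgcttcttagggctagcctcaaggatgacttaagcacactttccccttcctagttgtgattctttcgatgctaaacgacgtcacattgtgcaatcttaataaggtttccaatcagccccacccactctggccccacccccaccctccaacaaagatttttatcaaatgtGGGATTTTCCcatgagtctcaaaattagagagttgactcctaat

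Il10 and Lta were the other cytokine genes called outside the network. Il10, an anti-inflammatory cytokine, had log2 signals of 5.59, 5.45 and 5.69 in normal and of 5.21, 4.85, 4.62 and 4.87 in asthma-at-risk arrays. Lta, the lymphotoxin that maintains lymphoid follicles, had 7.61, 7.54 and 7.96 in normal and 7.25, 6.75, 7.05 and 6.97 in asthma-at-risk arrays. The nearest arrays of the groups were closer here than for Cxcl1. Il10 fell 1.61-fold (log2 fold change -0.69, SE 0.12, adjusted p = 0.0189) and Lta fell 1.62-fold (-0.69, SE 0.14, adjusted p = 0.0415). Neither call was firm. The call of Il10 was lost when AF79, AF81 or AF83 was left out (adjusted p from 0.0533 to 0.0786) and Lta without any 1 of 9 arrays, AF76, AF79, AF81, AF82, AF83, AF85, AF87, AF89 and AF91 (from 0.0506 to 0.14). Of 32 cytokines measured, Il6, Ifnb1, Il10 and Lta fell, none rose and 23 were negative, with a median of -0.15. Il1a, an inflammatory cytokine, had -0.59 (adjusted p = 0.0814). In the list of receptors for type 2 and alarmin cytokines, which sense allergic signals, none of 15 was called and the median was 0.04.

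Ctla4, the inhibitory receptor that takes CD80 and CD86 from DCs, had log2 signals of 8.46, 8.75 and 8.47 in normal and of 7.88, 7.98, 7.89 and 7.55 in asthma-at-risk arrays. The lowest of these 7 was the asthma-at-risk array AF83. It fell 1.66-fold (log2 fold change -0.73, SE 0.11, adjusted p = 0.00903) and was called without each array, but not with only the naïve arrays (adjusted p = 0.151). Among 17 genes of regulatory T cells and inhibitory receptors Ctla4 and Il10 fell, none rose and 13 were negative (median -0.16), and Gpr83, a receptor of regulatory T cells, had -0.39 (adjusted p = 0.0655). Itm2a, a membrane protein of activated T cells, fell by 0.51 (adjusted p = 0.0282), and lost its call without AF79, AF80 or AF83 (adjusted p from 0.0746 to 0.0848). These genes are also transcribed in T cells, and the T cell markers moved with them. Of 15 T cell markers none was called, 13 were negative and their median was -0.32. In 7 of the 15 all asthma-at-risk arrays lay below all normal arrays, against 5.74% of all genes, and in 0 above. The log2 of their summed signal was 13.73 to 13.78 in normal and 13.45 to 13.53 in asthma-at-risk arrays, with no overlap. Cd28, the costimulatory receptor, had -0.54 (adjusted p = 0.104), Cd5 -0.46 (adjusted p = 0.201) and Thy1 -0.89 (adjusted p = 0.264), while Cd3e had -0.34 (adjusted p = 0.544). The part of T cell RNA in the falls of Ctla4, Il10, Lta and Itm2a was not tested.

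Clu, Mfge8 and Cr2 fell together, and with Cxcl13 they are known products of follicular dendritic cells. This grouping was made after the values were seen and has no test. In stimulated DCs of Set 1 the genes parted. All 8 arrays lay above all naïve asthma-at-risk arrays for the 3 called probe sets of Clu. For Mfge8, Cr2 and Cxcl13 all 8 lay below them. Clusterin, the secreted chaperone encoded by Clu, had log2 signals of 10.71, 10.59 and 11.25 in normal and of 9.58, 9.84, 9.87 and 9.69 in asthma-at-risk arrays on its brightest probe set. AF79 was the highest normal array on each of the 3 called probe sets of Clu. Their log2 fold changes were -1.11, -1.11 and -1.05 (adjusted p = 0.0208, 0.0221 and 0.0394), and the remaining probe set had -0.87 (adjusted p = 0.0638). None of the 3 held its call throughout, and the brightest lost it without AF79, AF80 or AF83 (adjusted p from 0.0612 to 0.0875). Mfge8, whose product bridges dying cells to phagocytes, had 9.92, 9.86 and 10.08 in normal and 9.11, 9.24, 9.14 and 9.08 in asthma-at-risk arrays. The arrays of each group lay close together. It fell 1.75-fold (log2 fold change -0.81, SE 0.08, adjusted p = 0.000786), with a call without each array and with only the naïve arrays. Cr2, the complement receptor of B cells and follicular dendritic cells, had 9.47, 9.55 and 10.00 in normal and 9.05, 8.99, 8.92 and 8.88 in asthma-at-risk arrays. It fell 1.64-fold (-0.71, SE 0.10, adjusted p = 0.00808) and was called without each array. Cxcl13 had 9.78, 9.94 and 10.36 in normal and 8.88, 9.13, 9.0 and 8.75 in asthma-at-risk arrays, and its difference of -1.09 was not called (adjusted p = 0.0629).

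On the clearance, B cell and stromal lists no further gene was called. Of 19 genes of apoptotic cell clearance Mfge8 alone was called, and 3 had all asthma-at-risk arrays below all normal arrays. Over all genes 5.74% lay wholly below normal in this way. The median of the 19 was -0.10 (-0.03 without AF79 and AF81), and Thbs1, a bridging protein, had -0.75 (adjusted p = 0.149). Of 12 B cell markers Cr2 alone was called, with 9 negative, 4 wholly below normal and a median of -0.18 (-0.08 without AF79 and AF81), and Cd79a had -0.06 (adjusted p = 0.755). The log2 of the summed B cell markers was 14.19 to 14.42 in normal and 14.07 to 14.21 in asthma-at-risk arrays. Of 14 stromal markers none was called (median -0.09, and -0.20 without AF79 and AF81), 2 lay wholly below normal, and their log2 sum was 11.82 to 12.05 in normal and 11.49 to 11.93 in asthma-at-risk arrays. A probe set of an immunoglobulin kappa variable segment had the largest fall among the called probe sets, with 9.67, 10.71 and 10.15 in normal and 8.79, 8.33, 8.73 and 9.08 in asthma-at-risk arrays. Its spread in normal arrays (SD 0.52) was also among the widest of the called genes. The fall was 2.73-fold (log2 fold change -1.45, SE 0.27, adjusted p = 0.0331), and the call was lost without any 1 of AF77, AF79, AF80, AF81, AF82, AF85, AF89 and AF91 (adjusted p from 0.0506 to 0.098). Immunoglobulin gene segments are alike in sequence, so the probe set may also measure others. Of 8 plasma cell markers none was called, 7 were negative and the median was -0.15. Their log2 sum was 13.95 to 14.19 in normal and 13.74 to 13.91 in asthma-at-risk arrays, with no overlap, and Jchain, the joining chain of secreted antibodies, had -0.31 (adjusted p = 0.134). The part of plasma cell RNA in the fall of the kappa segment was not tested.

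**Figure D2:**
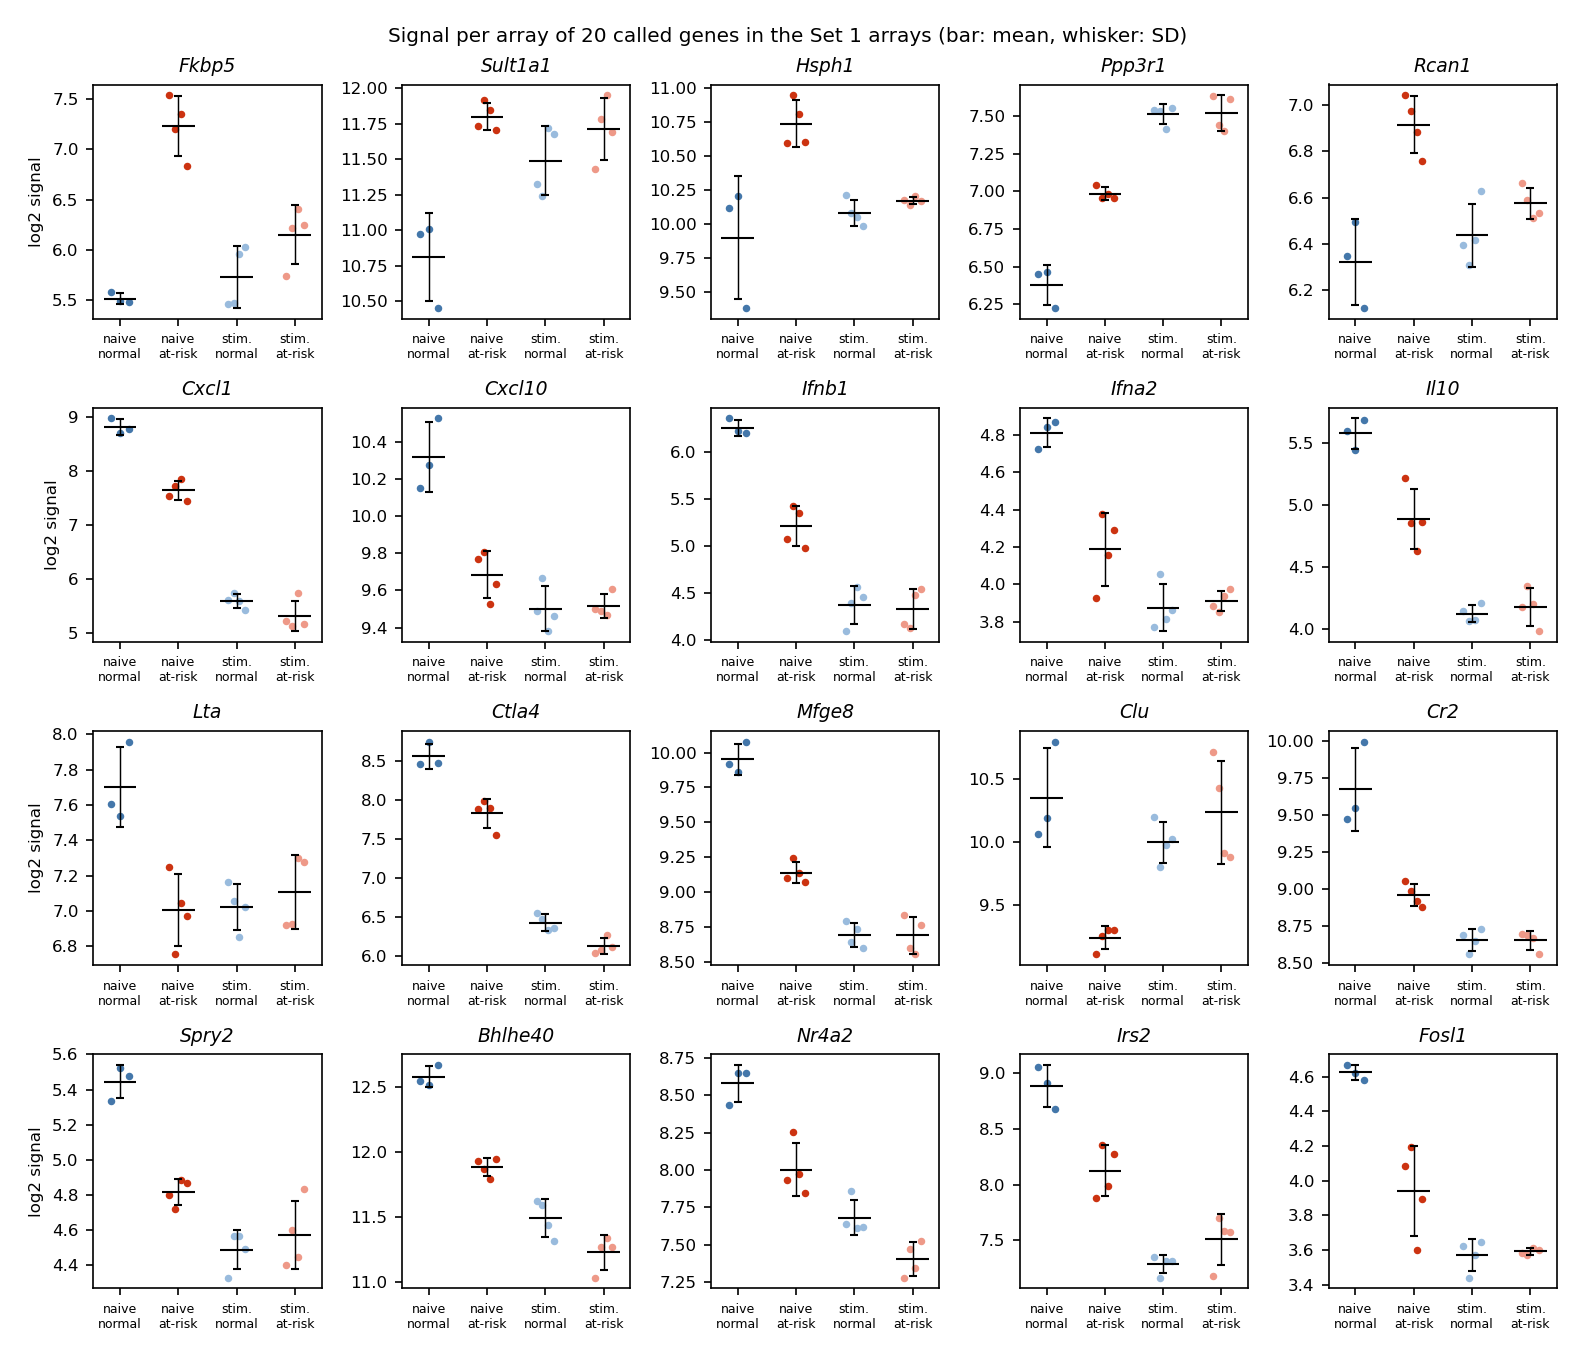
Log2 signal (y axis) of 20 called genes in naïve and stimulated DCs of normal and asthma-at-risk pups, with 1 point per array, bars for the mean and whiskers for the SD, each gene by its called probe set of the largest change. In each panel the 3 naïve normal points lie apart from the 4 naïve asthma-at-risk points, above them for 15 genes and below them for Fkbp5, Sult1a1, Hsph1, Ppp3r1 and Rcan1.

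Bhlhe40, Irs2, Fosl1, Nr4a2, Spry2 and Spry4 fell as well. Bhlhe40, a helix-loop-helix repressor of the clock and of cytokine genes, had log2 signals of 12.55, 12.52 and 12.67 in normal and of 11.93, 11.87, 11.80 and 11.95 in asthma-at-risk arrays. It was among the brightest called genes, at the 90.9 percentile, and its groups were tight (SD 0.08 and 0.07). It fell 1.62-fold (log2 fold change -0.69, SE 0.09, adjusted p = 0.00357), also with only the naïve arrays (adjusted p = 0.0443). Of 19 circadian clock genes it alone was called, and Arntl, a core activator, had -0.34 (adjusted p = 0.0764) and Nfil3, a clock output factor, -0.62 (adjusted p = 0.0814). Irs2, an adaptor of the insulin and IL-4 receptors, had 9.06, 8.92 and 8.68 in normal and 7.88, 8.36, 7.99 and 8.28 in asthma-at-risk arrays. It fell 1.70-fold (-0.76, SE 0.14, adjusted p = 0.0221), and lost its call without AF76, AF80 or AF82 (adjusted p from 0.0643 to 0.0711). Fosl1, an AP-1 subunit, had 4.67, 4.62 and 4.58 in normal and 4.08, 4.19, 3.60 and 3.89 in asthma-at-risk arrays. Its probe set was at the 6.2 percentile, the dimmest of the called ones. It fell 1.60-fold (-0.68, SE 0.11, adjusted p = 0.0127), while its brighter probe set had -0.17 (adjusted p = 0.385). Of 15 AP-1 and Maf genes 11 were negative (median -0.06), and Maff, of the network, was the 1 called by its probe set of highest mean.

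Nr4a2, an orphan nuclear receptor of the immediate early type, fell by 0.58 (adjusted p = 0.022) on the dimmer probe set, and had -0.72 (adjusted p = 0.0764) on the brighter one. The first lost its call without AF79, AF80, AF82 or AF83 (adjusted p from 0.0626 to 0.0832). Spry2 and Spry4 encode Sprouty proteins, which damp the MAP kinase path. Spry2 fell by 0.53 (SE 0.09, adjusted p = 0.0197) on its bright and 0.63 (SE 0.10, adjusted p = 0.0127) on its dim probe set. On the bright one the arrays were at 12.00, 12.05 and 12.12 in normal and at 11.58, 11.57, 11.51 and 11.46 in asthma-at-risk pups, with an SD of 0.06 in both groups. Spry4 fell by 0.52 (adjusted p = 0.0208) on a dim probe set, but not on its other one (-0.15, adjusted p = 0.382). The bright probe set of Spry2 lost its call without AF79, AF82 or AF83 (adjusted p from 0.0539 to 0.0738), and the dim probe set of Spry4 without AF80 (adjusted p = 0.0711) or AF83 (adjusted p = 0.0626). Over 13 genes of MAP kinase feedback the median was -0.15, with 7 negative and Spry2 alone called by the probe set of highest mean, but it was -0.07 without AF81 and 0.03 with no call without AF79 and AF81. Dusp2, a nuclear phosphatase of MAP kinases, had -0.42 (adjusted p = 0.208). Of 23 Egr, Nr4a and other immediate early genes, 18 were negative (median -0.14, and -0.21 without AF79 and AF81), and the called ones, Phlda1 and Gem, belong to the network. The 16 genes of NF-kB subunits and feedback had no call, but 15 were negative and the median was -0.18. Bcl3, a nuclear partner of NF-kB, had -0.52 (adjusted p = 0.0815), Rel, a subunit, -0.58 (adjusted p = 0.149) and Nfkbiz -0.36 (adjusted p = 0.149).

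Pde4b, Ptpn2, Dyrk3, Plaur, Hilpda and Rilpl2 fell by less. Pde4b, the phosphodiesterase that breaks down cyclic AMP in leukocytes, fell by 0.48 (adjusted p = 0.0394), Ptpn2, a phosphatase of Jak-Stat signalling, by 0.46 (adjusted p = 0.0127) and Dyrk3, a dual-specificity kinase, by 0.51 (adjusted p = 0.0394). The brighter probe sets of Pde4b and Ptpn2 had -0.34 (adjusted p = 0.108) and -0.04 (adjusted p = 0.774). Plaur, the urokinase receptor, fell by 0.54 (adjusted p = 0.0319) and Hilpda, a lipid droplet protein of hypoxia, by 0.52 (adjusted p = 0.0415). Rilpl2, a regulator of myosin and cilia transport, fell by 0.44 (adjusted p = 0.0127) at a mean of 11.43 in normal and 10.99 in asthma-at-risk arrays. Of these 6 genes Ptpn2 and Rilpl2 were called without each array. The others lost their calls without any 1 of 7 arrays (Plaur, adjusted p from 0.0507 to 0.098), 11 arrays (Pde4b, to 0.108, and Dyrk3, to 0.112) or 12 arrays (Hilpda, to 0.117).

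Sult1a1 and Hsph1 were, with Fkbp5, the rises at the highest signal. Sult1a1, a sulfotransferase of phenols and hormones, had log2 signals of 10.97, 11.01 and 10.45 in normal and of 11.73, 11.91, 11.84 and 11.71 in asthma-at-risk arrays. AF79 was the lowest normal array. It rose 1.98-fold (log2 fold change 0.99, SE 0.15, adjusted p = 0.0127) and was called without each array, but not without AF79 and AF81 together (0.77, adjusted p = 0.0914). Of 14 genes of the aryl hydrocarbon receptor and xenobiotic list 11 were negative and Sult1a1 alone was called. Ahr itself, the receptor, had -0.47 (adjusted p = 0.0963) and its target Tiparp -0.32 (adjusted p = 0.0793). Hsph1, a chaperone of the Hsp110 family, had 10.11, 10.20 and 9.38 in normal and 10.60, 10.95, 10.81 and 10.60 in asthma-at-risk arrays on the probe set with the larger change. The low value of AF79 gave the normal group an SD of 0.45. Its rise was 1.79-fold (0.84, SE 0.15, adjusted p = 0.0264), and 0.38 (SE 0.07, adjusted p = 0.0264) on the brighter probe set. The larger one lost its call without AF81, AF82 or AF83 (adjusted p from 0.0502 to 0.085), and was 0.51 (adjusted p = 0.0311) without AF79 and AF81 together.

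Of 16 chaperone genes Hsph1 alone was called, with 10 positive and a median of 0.05. Dnajb4, a co-chaperone of Hsp70, had 8.53, 8.54 and 8.91 in normal and 8.18, 8.06, 7.89 and 7.87 in asthma-at-risk arrays. It fell 1.58-fold (log2 fold change -0.66, SE 0.11, adjusted p = 0.0141) and was called without each array, while its brighter probe set had -0.46 (adjusted p = 0.232). Hspa2, another Hsp70, had -0.39 (adjusted p = 0.0814) and Hspd1, the mitochondrial chaperonin, 0.17 (adjusted p = 0.289).

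Ppp3r1, the regulatory subunit of calcineurin, the calcium-dependent phosphatase that activates NFAT, had log2 signals of 6.45, 6.46 and 6.23 in normal and of 7.04, 6.95, 6.98 and 6.96 in asthma-at-risk arrays. Rcan1, an inhibitor of calcineurin that NFAT induces, had 6.35, 6.50 and 6.12 in normal and 7.04, 6.97, 6.88 and 6.76 in asthma-at-risk arrays. In both AF79 was the lowest array. Ppp3r1 rose by 0.60 (SE 0.08, adjusted p = 0.00357) and Rcan1 by 0.59 (SE 0.10, adjusted p = 0.0157). The brighter probe set of Ppp3r1, at a mean log2 signal of 11.62, had 0.06 (adjusted p = 0.744), and that of Rcan1 had 0.33 (adjusted p = 0.0943). Rcan1 lost its call without AF79 (adjusted p = 0.062). This pair was not on a list and was noticed after its values were seen.

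The other rises were of transcription, RNA and metabolic genes and of Gzmc, Il17ra and Fzd7. Most of these rises rested on a probe set that was not the brightest of its gene. Ccnt2, a cyclin of the transcription elongation kinase, had 5.32, 5.25 and 5.04 in normal and 6.26, 6.38, 6.43 and 5.99 in asthma-at-risk arrays. It rose 2.08-fold (log2 fold change 1.06, SE 0.17, adjusted p = 0.0139), while its brightest probe set had 0.36 (adjusted p = 0.155). Zfp574, a zinc finger protein, had 5.20, 5.21 and 5.01 in normal and 5.94, 5.94, 6.15 and 5.88 in asthma-at-risk arrays. It rose 1.79-fold (0.84, SE 0.13, adjusted p = 0.0139), against 0.21 (adjusted p = 0.412) on its brightest probe set. Both were called with only the naïve arrays (adjusted p = 0.0443 for each) and lost their calls without AF79 (adjusted p = 0.0648 for Ccnt2 and 0.0644 for Zfp574). Brd8, a bromodomain subunit of a histone acetyltransferase, had 5.50, 5.80 and 5.54 in normal and 6.33, 6.14, 6.45 and 6.35 in asthma-at-risk arrays. Rbm25, a splicing factor, had 5.52, 5.25 and 5.37 in normal and 6.0, 5.92, 6.04 and 6.06 in asthma-at-risk arrays. Zfp329, another zinc finger protein, had 6.94, 6.71 and 6.62 in normal and 7.40, 7.39, 7.54 and 7.36 in asthma-at-risk arrays. The groups were well apart in all 3 genes. Brd8 rose by 0.70 (SE 0.10, adjusted p = 0.00808), Rbm25 by 0.62 (SE 0.10, adjusted p = 0.0139) and Zfp329 by 0.67 (SE 0.12, adjusted p = 0.0319). On their brightest probe sets they had 0.17, 0.09 and 0.33 (adjusted p = 0.377, 0.66 and 0.139). Brd8 and Rbm25 were called without each array, and Zfp329 was not without AF77, AF79, AF80, AF81, AF82 or AF83 (adjusted p from 0.0504 to 0.117).

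Gpt2, the mitochondrial alanine aminotransferase, had 7.44, 7.38 and 6.92 in normal and 8.06, 7.99, 8.08 and 7.68 in asthma-at-risk arrays. It rose 1.64-fold (log2 fold change 0.71, SE 0.13, adjusted p = 0.0282), and its other probe sets had 0.64 (adjusted p = 0.0764) and 0.32 (adjusted p = 0.232). The call was lost without AF79, AF80, AF81 or AF82 (adjusted p from 0.0786 to 0.0875). Gzmc, a granzyme of cytotoxic lymphocytes, had 4.75, 4.70 and 4.64 in normal and 5.41, 5.70, 5.39 and 5.12 in asthma-at-risk arrays. It was dim, at the 21.9 percentile, and AF81 was its highest array. It rose 1.64-fold (0.71, SE 0.11, adjusted p = 0.0127) and was called without each array. None of 11 NK cell markers was called, and the log2 of their summed signal was lower, at 14.08 to 14.20 in asthma-at-risk against 14.23 to 14.34 in normal arrays. Gzmb, another granzyme, had -0.60 (adjusted p = 0.59). Il17ra, the receptor of IL-17, rose by 0.47 (adjusted p = 0.0307) and Fzd7, a Wnt receptor, by 0.53 (adjusted p = 0.0189), each with a further probe set that was not called (0.14 and 0.06). Smaller rises were those of Lipt1, a lipoyltransferase (0.58, adjusted p = 0.0456), Adat1, a tRNA deaminase (0.49, adjusted p = 0.00808), Banp, a nuclear matrix protein (0.50, adjusted p = 0.0319), Rbmx, an RNA-binding protein (0.43, adjusted p = 0.0346) and Cnot4, a ubiquitin ligase of the CCR4-NOT complex (0.37, adjusted p = 0.0473). Of these 7 Adat1 alone was called without each array.

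Probe sets of 1 gene often disagreed, and more so among the rises. Of the 19 higher genes 15 had more than 1 probe set, and in 12 of the 19 the brightest probe set was not called. Those 12 had a median log2 fold change of 0.19 on the brightest probe set, from -0.13 to 0.36, against 0.61 on the called one. Of the 48 lower genes 28 had a single probe set, and in 12 the brightest was not called, with a median of -0.19 (from -0.72 to -0.04). Uncalled probe sets of called genes mostly kept the sign, 20 of 26 for the rises and 25 of 27 for the falls. Fkbp5 and Hsph1 among the rises, and Spry2 and Socs2 among the falls, were called on all their probe sets. Probe sets of 1 gene can read different transcript ends, so the rises of Ccnt2, Brd8, Rbm25, Ppp3r1, Rbmx and Cnot4 are those of the probe set and not of all RNA of the gene.

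**Figure D3:**
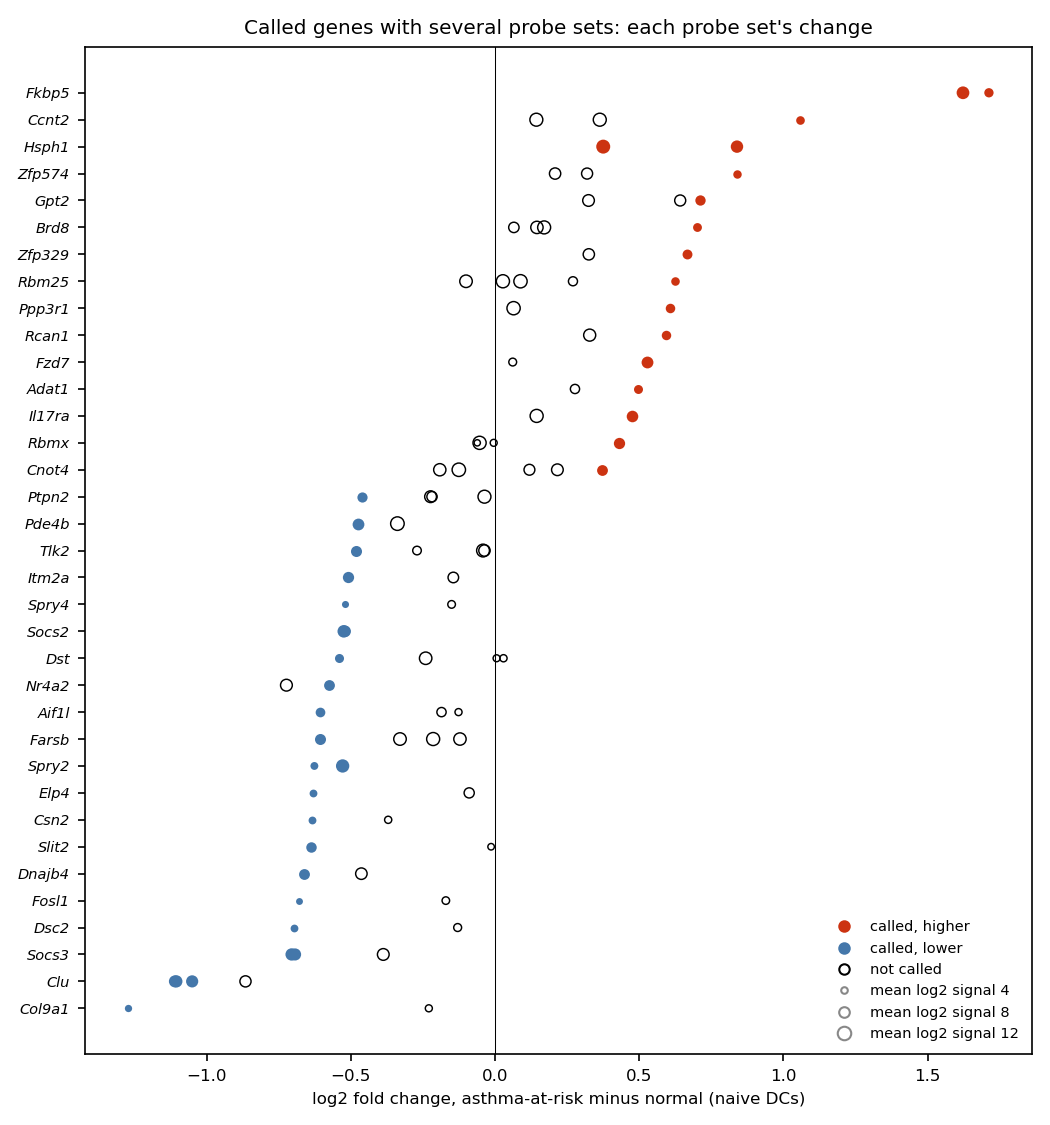
Log2 fold change (x axis) of each probe set of the 35 called genes that have several, with filled points for called and open points for uncalled probe sets, and point size for the mean log2 signal in naïve DCs. For Ccnt2, Brd8, Rbm25 and Ppp3r1 the small filled point lies far from the large open ones, whereas the points of Fkbp5, Clu and Spry2 lie together.

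Some falls were on probe sets near the bottom of the signal range or of genes little known in DCs. Col9a1, a cartilage collagen, had 4.92, 4.92 and 6.03 in normal and 3.83, 4.25, 4.03 and 3.95 in asthma-at-risk arrays. The high value was that of AF79, and without AF79 and AF81 the difference was -0.98 (adjusted p = 0.00416). It fell 2.42-fold (log2 fold change -1.27, SE 0.21, adjusted p = 0.0148), and its other probe set had -0.23 (adjusted p = 0.382). Snap91, a clathrin adaptor, had 6.69, 6.44 and 6.60 in normal and 5.53, 5.74, 5.94 and 5.91 in asthma-at-risk arrays, and fell 1.74-fold (-0.80, SE 0.13, adjusted p = 0.018). Dsc2, a desmosomal cadherin, had 5.55, 5.20 and 5.41 in normal and 4.76, 4.62, 4.59 and 4.79 in asthma-at-risk arrays, and fell 1.62-fold (-0.70, SE 0.12, adjusted p = 0.0197). Snap91 lost its call without AF76 or AF79 (adjusted p = 0.0521 and 0.0644), and Dsc2 without AF76, AF79, AF81 or AF82 (from 0.0573 to 0.0713). The remaining 12 lower genes changed by -0.64 to -0.48. They were Pcp4, which binds calmodulin, the casein gene Csn2, Elp4 of the elongator complex, Farsb, a tRNA synthetase subunit, Aif1l, Perp, Oosp1, the cytoskeletal linker Dst, Impdh1 of guanine nucleotide synthesis, Hs3st1 of heparan sulfate sulfation, Loxl3, a lysyl oxidase, and the kinase Tlk2. The brightest probe sets of Farsb (-0.21), Dst (-0.24), Elp4 (-0.09) and Tlk2 (-0.04) were not called, nor was that of Dsc2 (-0.13). These calls too are those of the probe set, though the uncalled probe sets of Farsb were all negative (-0.33 to -0.12). For Itm2a the brighter probe set was the called one, and the dimmer one had -0.14. Of the falls 11 called probe sets lay under the 25th percentile of signal, against 1 of the rises.

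**Figure D4:**
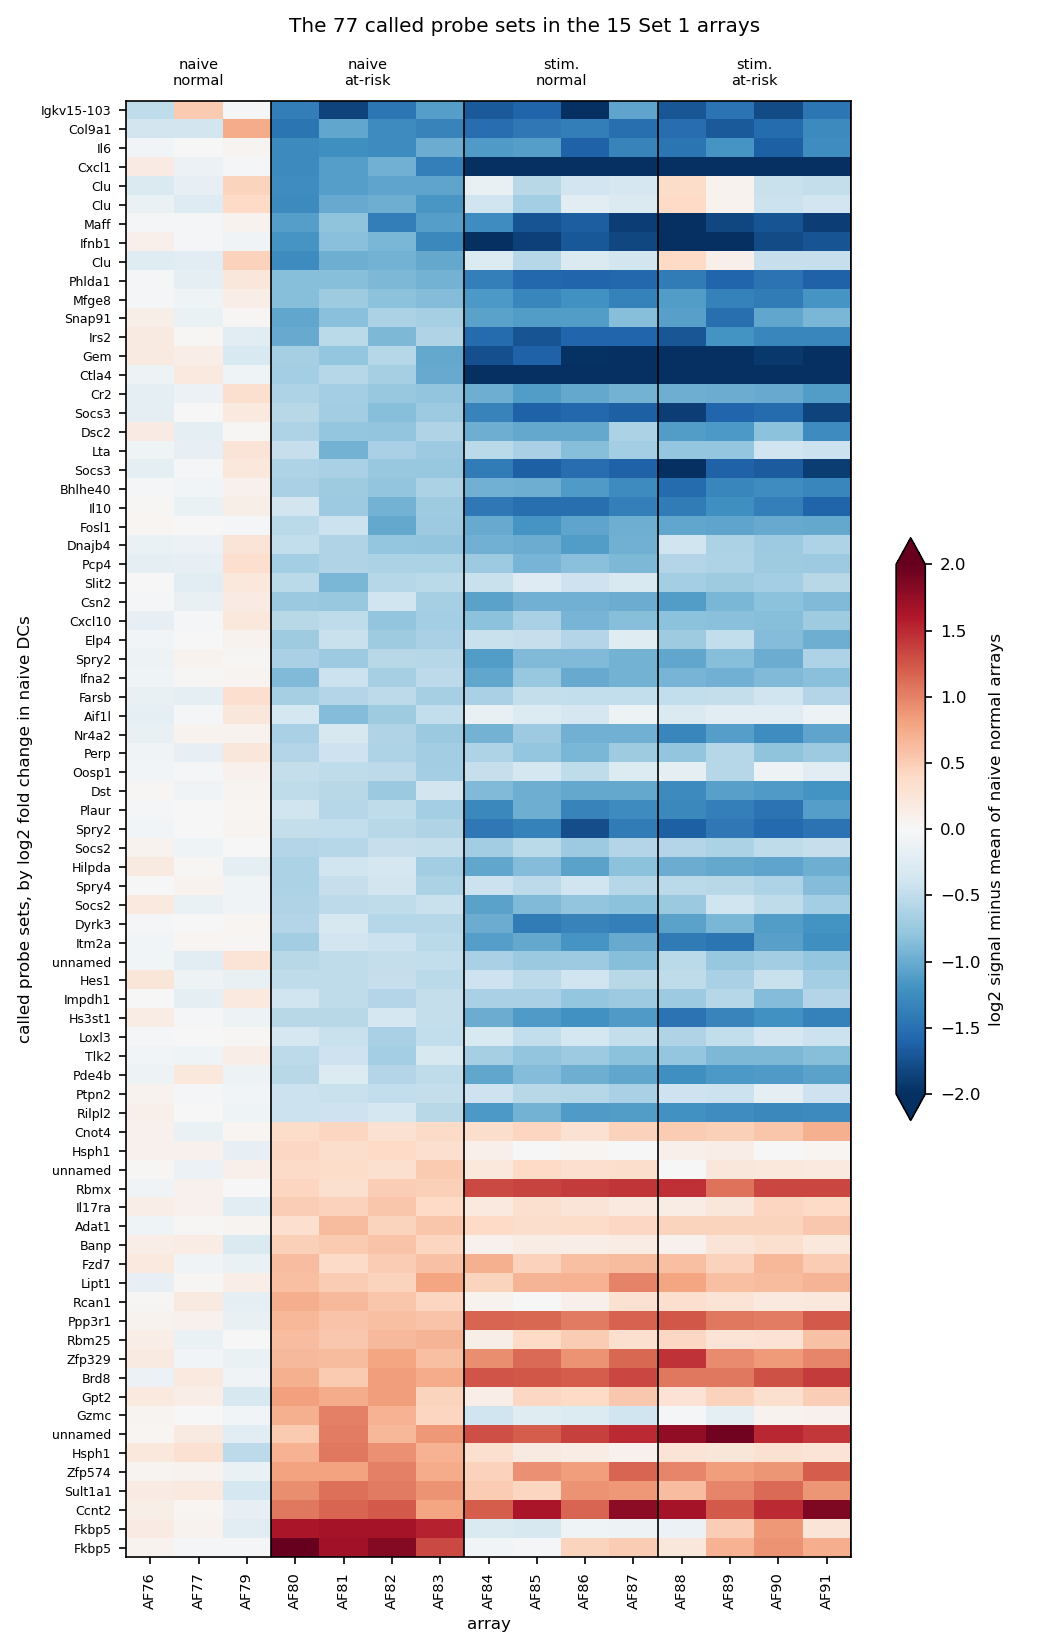
Log2 signal of the 77 called probe sets (rows, ordered by log2 fold change in naïve DCs) on the 15 arrays of Set 1 (columns), each row relative to the mean of its 3 naïve normal arrays, blue for lower and red for higher. The naïve asthma-at-risk columns are uniformly blue in the upper 54 rows and red in the lower 23, with Fkbp5 the deepest red.

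Most immune and metabolic lists held no call. Over 711 genes of the pathway and marker lists, chosen with earlier results of these data known, 3 were higher and 16 lower. Over all genes 0.0565% were higher and 0.29% lower. At such shares a list of this length would mostly hold no call. MHC class II presentation had 0 called of 12 (median 0.02) and MHC class I presentation 0 of 13 (median 0.04), with Cd74, H2-Aa and H2-Ab1 within 0.05 of no difference. Toll-like receptors and their adaptors had 0 of 16 called (median -0.01) and Tlr2 the smallest adjusted p (-0.27, adjusted p = 0.149). Among 23 genes of costimulation and DC maturation Socs2, of the network, was the 1 called. The 24 genes of TGF-beta and BMP signalling had no call (median -0.11), with Bmp2 at -0.71 (adjusted p = 0.128). Of 16 Notch genes Hes1, of the network, was called, and Nrarp, a target and inhibitor of Notch, had -0.46 (adjusted p = 0.104). The 13 genes of the DNA methylation machinery had no call and a median of 0.05, with Mbd4, a repair enzyme at methylated sites, at 0.41 (adjusted p = 0.0629). Genes of the cell cycle (0 of 27, median 0.08), hypoxia and glycolysis (0 of 21, -0.05), oxidative stress (0 of 14, -0.03), amino acid and ER stress (0 of 23, -0.07), cholesterol synthesis (0 of 15, -0.11), lipid handling (0 of 17, -0.13), retinoids (0 of 15, -0.02), prostaglandins and leukotrienes (0 of 18, -0.02) and ribosome biogenesis (0 of 18, -0.03) were not called either. Fabp4, a fatty acid carrier, had 0.77 (adjusted p = 0.0764). Without AF79 and AF81 the medians of 9 of 46 lists changed sign, those of the cell cycle (to -0.04), DNA methylation (-0.05), MHC class I, prostaglandin, retinoid, circadian, MAP kinase feedback, platelet (-0.08, and -0.05 without AF81 alone) and pancreas lists, and that of MHC class II did so with median centring.

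Markers of other cells gave no call besides Cr2. Platelet, erythroid and endothelial markers had medians of 0.05, 0.08 and 0.12 between the naïve groups. The log2 of the summed platelet markers was 10.83 to 10.94 in normal and 10.70 to 10.99 in asthma-at-risk arrays. Neutrophil (median -0.10), macrophage and monocyte (-0.09), plasmacytoid DC (-0.05) and mast cell and basophil markers (-0.06) overlapped between the groups in their sums. Mcpt8, a basophil protease, had -1.25 (adjusted p = 0.117). Pancreatic enzyme transcripts had a median of -0.57 over 11 genes, none called, which was -0.25 without AF81 and 0.12 without AF79 and AF81, and the sum of their signals varied more among asthma-at-risk arrays (log2 from 10.29 to 12.74) than among normal arrays (10.95 to 11.62).

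**Figure D5:**
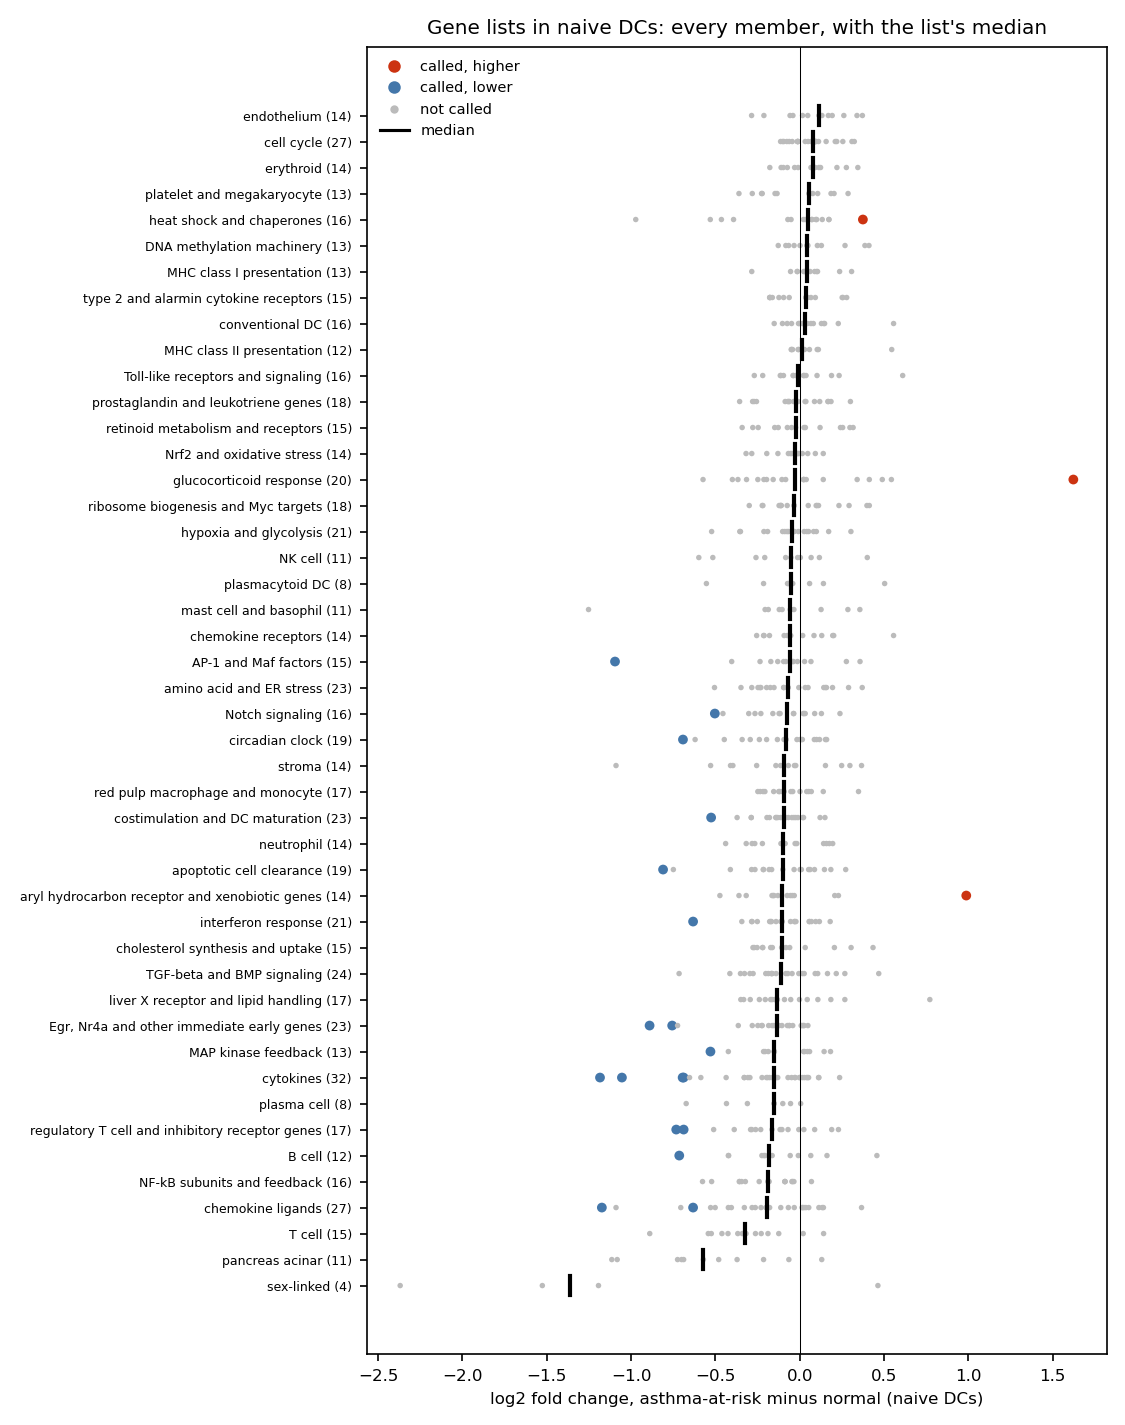
Log2 fold change in naïve DCs (x axis) of each measured member of 46 gene lists (rows, with the number of members), as 1 point per gene by its probe set of highest mean, with a bar for the list's median. Called genes stand out from their own lists, as Fkbp5 does in the glucocorticoid and Sult1a1 in the xenobiotic list, and the medians of T cell, chemokine ligand and NF-kB lists lie below 0.

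In stimulated DCs of Set 1 maternal status gave 16 called probe sets (0.0707%), and 0 of the 77 naïve ones were among them. There Cxcl1 averaged 5.60 in normal and 5.32 in asthma-at-risk pups, Ifnb1 4.38 and 4.33, Ctla4 6.43 and 6.12 and Cr2 8.66 and 8.65. These levels lay below those of both naïve groups. The 9 arrays of Set 2, stimulated DCs whose RNA was amplified and preprocessed apart, were fitted on their own and gave 1045 called probe sets (4.62%), 17 of the 77 among them, 13 in the same direction as in naïve DCs and 4 in the opposite one. There Cxcl1 had a maternal effect of -0.66 (adjusted p = 0.00299), Cxcl10 -0.42 (adjusted p = 0.00861), Spry2 -1.14 (adjusted p = 0.00283), Bhlhe40 -0.41 (adjusted p = 0.0378), Gzmc 1.57 (adjusted p = 0.000268) and Sult1a1 0.34 (adjusted p = 0.0438). The opposite direction was that of 2 probe sets of Clu (0.97 and 0.89, adjusted p = 0.0258 and 0.0304), Pcp4 (0.60, adjusted p = 0.0026) and Hsph1 (-0.74, adjusted p = 0.0441). Whether maternal status acted differently after allergen was tested as the difference of both maternal effects within Set 1, which share no array. In 11 probe sets of 22626 (0.0486%) it was called, and each time the effect was higher in stimulated than in naïve DCs. Outside the network these were Mfge8, Dnajb4, Ptpn2, Chil3, Anxa3, Xcl1 and Prom1. Mfge8 had -0.81 in naïve and -0.01 in stimulated DCs, a difference of 0.81 (SE 0.11, adjusted p = 0.0246). Dnajb4 had -0.66 in naïve and 0.41 in stimulated DCs, a difference of 1.08 (SE 0.14, adjusted p = 0.0246), and Ptpn2 had -0.46 and 0.18 (0.64, SE 0.10, adjusted p = 0.0311). For these 3 genes the naïve fall was itself called, so the difference holds values that had already passed a test. Chil3, a chitinase-like protein, had -0.27 in naïve DCs and a higher effect in stimulated DCs (difference 1.51, SE 0.17, adjusted p = 0.00682). Anxa3, an annexin, had -0.33 and 0.38 (0.70, adjusted p = 0.0311), Xcl1 -0.53 and 0.60 (1.13, adjusted p = 0.0311) and Prom1, a membrane protein of progenitors, -0.71 and 1.17 (1.88, adjusted p = 0.043). In Set 2 the maternal effect was -0.55 for Xcl1 (adjusted p = 0.0274), opposite in sign to Set 1, and 0.22 for Chil3 (adjusted p = 0.683), -0.09 for Anxa3 (adjusted p = 0.733) and 0.70 for Prom1 (adjusted p = 0.257). For Mfge8, Dnajb4 and Ptpn2 it was 0.07, 0.43 and 0.15, none called. For Fkbp5 the difference was not called on either probe set (adjusted p = 0.134 and 0.0878), nor for Cxcl1 (0.113), Ifnb1 (0.0713) or Ctla4 (0.417). Counts for this test moved widely with single arrays, rising to 30 when AF90 and to 28 when AF80 was left out. The count was 6 for AF84, 5 for AF89 or AF77, 3 for AF81 or AF76, and 1 when any of AF82, AF83, AF86, AF87 and AF91 was left out.

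Of the 59 genes outside the network 23 were called without each of the 15 arrays, 7 of the higher and 16 of the lower genes, and 7 were called with only the naïve arrays. The latter were Fkbp5, Ccnt2, Zfp574, Cxcl1, Ifnb1, Mfge8 and Bhlhe40. Without AF79 the count of called probe sets was 47, without AF83 it was 44 and without AF77 it was 269. Of the 77, 42 lost their calls without AF79, 37 without AF83, 32 without AF80, 29 without AF82 and 27 without AF81, against 16 without AF76 and 9 without AF77. By a test of the fold threshold itself (treat) 5 probe sets were called, both of Fkbp5 and those of Cxcl1, Il6 and Phlda1.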

How the data were processed

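RNA of 24 arrays was hybridized to Affymetrix Mouse430A 2.0. The deposited values were probe set intensities on a linear scale that the authors had made with RMA (version not given in the sources used here), which corrects background, normalizes quantiles and summarizes by median polish. Each set was preprocessed separately and 1 outlying array per set was excluded, per the authors. RMA makes arrays alike in distribution, so a shift of all genes cannot be seen, and it compresses folds of dim probe sets. The table holds the manufacturer's probe sets. The authors' own counts used another probe set definition. The number of arrays limits the precision.

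Log2 was taken with no pseudocount, and 64 control probe sets were left out. Symbols came from the platform annotation, where 20380 of 22626 probe sets have 1 symbol, 691 several and 1555 none. The 15 arrays of Set 1 were fitted with 1 mean per group in limma 3.58.1 (R 4.3.3, lmFit and eBayes, 11 residual and 3.62 prior degrees of freedom), and p-values were adjusted over all probe sets. A gene in a list was read by its probe set of highest mean. Genes with values were every called gene with 1 symbol, with per-array values for the 10 largest rises and 16 largest falls outside the network, and, in each list, the called members and up to 3 with the smallest adjusted p. Further genes in the text were chosen after their values were seen. The members and the 48 lists were chosen with earlier results of these data known. Scripts were tested on simulated data. Alternatives were the naïve arrays alone, all 24 arrays, other normalizations, log2(value + 16), a filter at the 40th percentile, no fold threshold, treat, array weights, a prior with trend and robust, each array left out and 1 probe set for a gene. Replicate numbers were unique to an array, so nothing was paired.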

Additional observations from a re-analysis of the deposited data

Results flagged for a closer look

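On 2 of the 74 named called probe sets 1 of the 4 naïve asthma-at-risk arrays lay far from the others, by the ratio of its gap to the range. AF81 was low for Slit2, at 7.27 against 7.62 to 7.66, and high for Dyrk3, at 9.29 against 9.03 to 9.05. Chance gives such a gap in about 1 of 20 groups.

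The maternal effect differed between stimulated and naïve DCs of Set 1, by the test of the difference itself, in 11 probe sets. The log2 differences, stimulated minus naïve, were 1.51 for Chil3 (adjusted p = 0.00682), 0.81 for Mfge8, 1.08 for Dnajb4 and 0.89 for Phlda1 (each adjusted p = 0.0246), 0.70 for Anxa3, 0.64 for Ptpn2, 1.13 for Xcl1 and 0.62 for Socs2 (each adjusted p = 0.0311), 1.10 for Il6 (adjusted p = 0.0402), 1.88 for Prom1 (adjusted p = 0.043) and 0.83 for the other probe set of Socs2 (adjusted p = 0.048).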

How the results depend on the processing

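In naïve DCs 23 probe sets were higher and 54 lower. With only the 7 naïve arrays these counts became 5 and 7, with all 24 arrays 50 and 75 (56 of the 77 shared), by a test of the fold itself (treat) 2 and 3, with array weights 37 and 58, with 1 probe set per gene 7 and 36, without AF79 and AF81 together 11 and 28, and with the Eif2s3y signal as a covariate 9 and 21. With 1 array left out they ran from 14 to 134 and from 30 to 135. With 1 probe set per gene only the brightest of each gene was kept. In the fit of all probe sets it was not called in 12 of the 19 higher and 12 of the 48 lower genes. The causes of the other shifts were not tested. The 11 calls for the difference of the maternal effects became 19 with median centring, 21 with the filter on dim probe sets, 21 with trend and robust, 21 with 1 probe set per gene, 42 with array weights and 0 by treat (196 at an unadjusted p under 0.05), and 1 to 30 with 1 array left out. The 19 list genes called numbered 14 to 23 under their alternatives. For the 26 genes with the largest changes outside the network, 250 values under an alternative kept their side of the threshold, 62 lost the call and 0 reversed. This tally left out treat, by which only Fkbp5 and Cxcl1 of these genes were called, and the fit with no fold threshold. Of the fits with 1 array left out it held only those of the smallest and largest adjusted p. Probe sets that an alternative removed were not counted, so the tally is no measure of stability across all fits. No paired analysis was possible because the columns carry no replicate number shared between groups. The limits are the 3 normal arrays, of which AF79 stands apart. Another is an unmeasured background under dim probe sets such as those of Ifna2, Fosl1 and Col9a1. The summed markers of T, NK and plasma cells did not overlap between the naïve groups, though none of these markers was called. Xist was higher in every naïve asthma-at-risk array than in any naïve normal array, and the sex of the pups is not stated.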
